A study of Rattus norvegicus with 8 samples.

Results

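The voltage-gated potassium channels of the Kv4 family were followed through 8 rat genes in hippocampal RNA, chosen by NCBI GeneID out of the 22601 genes with a value in each library. They comprise the pore subunits *Kcnd2* (Kv4.2, GeneID 65180) and *Kcnd3* (Kv4.3, 65195), the calcium-binding KChIP subunits *Kcnip1* (65023), *Kcnip2* (56817), *Kcnip3* (65199) and *Kcnip4* (259243), and the membrane-spanning partners *Dpp6* (29272) and *Dpp10* (363972). RNA sequencing was carried out on the hippocampus of Wistar rats of an age not stated, with 3 libraries in the Con. group, 3 in the PTZ group and 2 in the Q808 group. The Con. rats received saline and then the solvent of Q808. Rats of the PTZ group were kindled with pentylenetetrazole (PTZ), a convulsant that blocks GABA-A receptors, at 35 mg/kg every 48 h, with 14 injections over 28 days, and at 60 mg/kg on the last of these days, and were then given the solvent by gavage for 28 days. Rats of the Q808 group were kindled in the same way and then received 30 mg/kg of Q808, an anti-convulsant under preclinical study, by gavage for 28 days. Both kindled groups were given a further sub-convulsive dose of PTZ at the final seizure evaluation, after which tissue was taken. No library came from rats given Q808 without PTZ, and no genetic change was stated for any group. Each library is named by its group and replicate number, as in Con.-1, and all values are FPKM, the number of fragments scaled by transcript length and by all mapped fragments of the library.

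Kv4 channels carry the rapidly inactivating A-type potassium current, which in hippocampal pyramidal neurons is dense in the dendrites and limits how far action potentials spread back into them. KChIPs bind the cytoplasmic start of the pore subunit, bring the channel to the surface and slow its inactivation, while DPP6 and DPP10, relatives of dipeptidyl peptidases without enzyme activity, speed up its gating. *Kcnip3* is also known as *Csen* or *Dream*, since its product binds presenilins and, in the nucleus, represses genes that hold the downstream regulatory element (DRE). Loss of Kv4.2 function and of dendritic A-type current has long been studied in epilepsy.

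In each group 1 library stood apart from the rest. For 8 striatum markers the mean log2(FPKM + 0.1) was 5.78 to 7.12 in Con.-3, PTZ-3 and Q808-1 and 1.48 to 2.38 in the other 5 libraries, with 8 of the 8 genes higher in each of the 3 libraries. In the same 3 libraries, the oligodendrocyte list lay at 8.27 to 9.05 against 6.88 to 7.56, the dentate granule cell list at 0.45 to 0.87 against 2.15 to 2.40, the list of CA1 and CA3 pyramidal cells at 1.83 to 2.23 against 2.83 to 3.22, and the list of all neurons at 6.09 to 6.45 against 6.72 to 7.42. Over all 8 libraries, the interneuron list ranged from 3.62 to 4.32, the thalamus list from 0.75 to 1.38, the neocortex list from 2.18 to 3.39 and the choroid plexus list from 0.47 to 4.79. The astrocyte list was 6.06 to 6.28 in the Con. group, 6.31 to 6.46 in the PTZ group and 6.26 to 6.76 in the Q808 group. The microglia list was 3.75 to 3.88, 3.73 to 4.34 and 4.12 to 4.97 in the same order, and the endothelium list 3.27 to 3.50, 3.29 to 4.27 and 3.66 to 4.52. Read numbers were not used here, and the depth of the other 7 libraries relative to Con.-1, taken from the steps between FPKM values under 0.3, was 0.854 to 1.19. Results are therefore given for all libraries, within the 5 libraries low in striatum markers and within the 3 libraries high in them, where each group has 1 library and no test is possible.

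The 8 genes spanned a wide range of levels. *Dpp6* had the highest mean over the 8 libraries, at 38.8 FPKM, followed by *Kcnd2* at 33.2 and *Kcnip3* at 28.8. Their order was not the same in all libraries, since *Dpp6* exceeded *Kcnd2* in 7 of 8 libraries and *Kcnd2* exceeded *Kcnip3* in 4 of 8. *Kcnd3* (11.2 FPKM) and *Dpp10* (10.3 FPKM) formed a middle pair, with *Kcnd3* the higher in 5 of 8 libraries. *Kcnip4* (6.91 FPKM) and *Kcnip1* (6.54 FPKM) followed, with *Kcnip4* the higher in 5 of 8 libraries, so that neither pair was separated beyond the spread between libraries. *Kcnip2* was lowest in 8 of 8 libraries, with a mean of 0.872 FPKM. All 8 genes passed the filter of a mean of at least 0.1 FPKM.

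**Figure D1:**
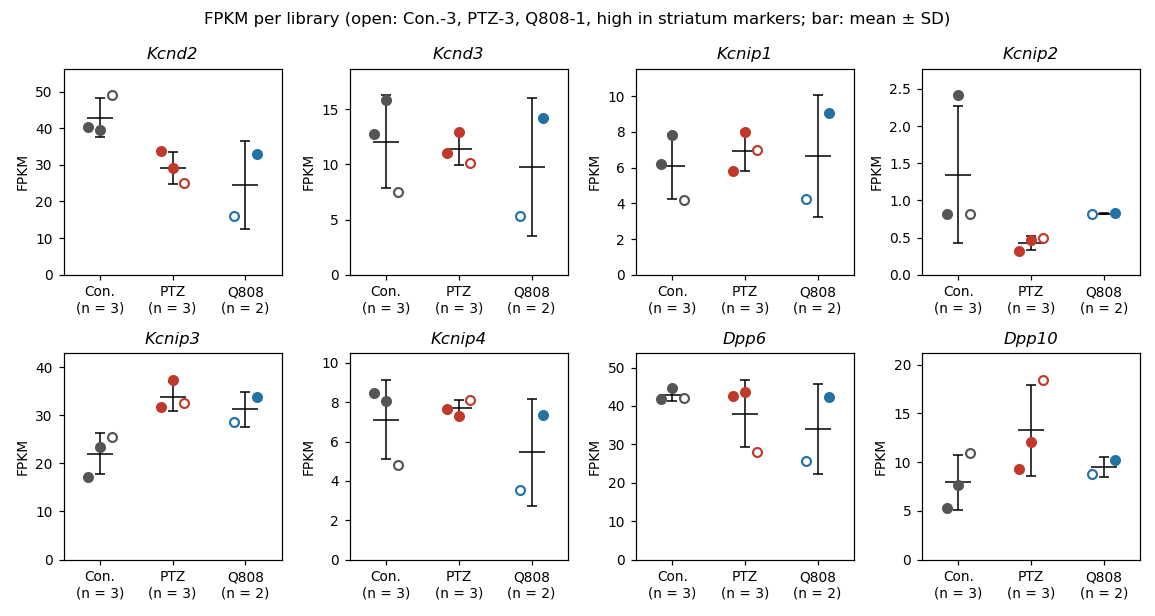
FPKM (vertical axes, linear, from 0) of the 8 genes in each library of the Con. (n = 3), PTZ (n = 3) and Q808 (n = 2) groups. Points are libraries, open points are the 3 libraries high in striatum markers, and bars show the mean ± SD. *Kcnd2* of all PTZ libraries lies below that of all Con. libraries, and *Kcnip3* of all PTZ libraries lies above that of all Con. libraries.

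The promoters of *Kcnd2*, *Kcnip2* and *Kcnip3* are shown because these were the genes called in at least 1 comparison, and because the product of *Kcnip3* binds DNA. Each line gives the 250 bases before the annotated start in RefSeq (GRCr8), 5′ to 3′ on the strand of the gene, with capitals marking the DRE core GTCA and its reverse complement TGAC. *Kcnd2* lies on the plus strand at chr4:50742235-50742484, *Kcnip2* on the minus strand at chr1:254613899-254614148 and *Kcnip3* on the minus strand at chr3:135195411-135195660.
Kcnd2: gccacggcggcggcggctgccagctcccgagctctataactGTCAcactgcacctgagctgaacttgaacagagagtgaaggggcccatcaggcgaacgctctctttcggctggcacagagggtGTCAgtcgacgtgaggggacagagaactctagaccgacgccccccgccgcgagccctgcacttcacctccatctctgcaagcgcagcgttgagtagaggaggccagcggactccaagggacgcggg
Kcnip2: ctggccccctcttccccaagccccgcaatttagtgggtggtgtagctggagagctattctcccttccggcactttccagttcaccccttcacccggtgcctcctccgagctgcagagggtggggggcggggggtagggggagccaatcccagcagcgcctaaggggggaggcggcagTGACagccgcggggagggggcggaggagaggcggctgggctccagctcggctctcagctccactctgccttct
Kcnip3: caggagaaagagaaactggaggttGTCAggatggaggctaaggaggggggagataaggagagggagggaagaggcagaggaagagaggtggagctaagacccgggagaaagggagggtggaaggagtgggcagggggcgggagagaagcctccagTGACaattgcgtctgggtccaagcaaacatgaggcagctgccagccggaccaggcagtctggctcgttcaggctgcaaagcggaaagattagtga
The DRE core was found 2 times before *Kcnd2*, 1 time before *Kcnip2* and 2 times before *Kcnip3*, on either strand, and 80.7% of 33469 promoters of this length hold it, with a median of 2 matches. The half-site TGACG of the cAMP response element, which contains TGAC, the AP-1 motif TGANTCA and the TATA motif TATAAA were in none of the 3, and in 18.2%, 6.34% and 12.9% of all promoters. The GC box GGGCGG was found 2 times before *Kcnip2*, 1 time before *Kcnip3* and not before *Kcnd2*, and 30.5% of all promoters hold it. The GC content was 64.0%, 68.0% and 58.4% in the order of the lines, beside a median of 51.2% over all promoters. These matches describe letters and not binding. Of the 8 genes, 7 had a promoter in the table, the exception being *Kcnip4*.

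Between the PTZ and Con. groups, *Kcnip3* rose and *Kcnip2* fell. Genes were called in limma on log2(FPKM + 0.1) where the unadjusted p-value was under 0.05 and the groups differed by over 1.5-fold. In the PTZ group 1.69% of the 15593 tested genes passed this rule as higher and 0.840% as lower. By this rule 1 of the 8 genes rose, 1 fell and 6 were not called. Neither these nor any other tested gene had an adjusted p-value under 0.05 in limma with Benjamini-Hochberg adjustment (0.999 for all 8), while 589 genes had an unadjusted p-value under 0.05, among them 3 of the 8. For *Kcnd2*, *Kcnip2* and *Kcnip3*, 3 of the 8, all PTZ libraries lay on the same side of all Con. libraries, against 9.15% of all tested genes. The median change of the 8 genes was 0.07 on the log2 scale, beside -0.04 over all tested genes. In bulk tissue, fewer cells of a type and less RNA per cell cannot be told apart.

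*Kcnd2* encodes the main pore subunit of the dendritic A-type current. Its level was 40.4, 39.4 and 48.9 FPKM in Con.-1 to Con.-3, 33.7, 29.1 and 24.9 FPKM in PTZ-1 to PTZ-3, and 16.1 and 32.9 FPKM in Q808-1 and Q808-2. All 5 libraries of kindled rats lay below the 3 Con. libraries, with Con.-3 the highest and Q808-1 the lowest of all. The share of all tested genes with kindled and Con. rats so divided was not computed. Taking 2 groups at a time, 9.15% (PTZ and Con.) and 20.0% (Q808 and Con.) did not overlap. The PTZ group was lower than the Con. group by a log2 difference of -0.56 (SE 0.16, 95% interval -0.93 to -0.18, unadjusted p = 0.00956), with means of 29.3 ± 4.39 and 42.9 ± 5.24 FPKM (SD, n = 3 each). This is a 1.47-fold difference, short of the limit for a call. The direction held within the 5 libraries (-0.35) and within the 3 libraries (-0.97). Without Con.-1, Con.-2 or PTZ-1, the difference was -0.60, -0.61 and -0.66 and passed the call, as it did with the striatum list as a covariate (-0.59). Without Con.-3 or PTZ-3, both high in striatum markers, it was -0.46 and -0.45 and was not called. In total it was called in 4 of 17 alternative fits.

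*Kcnd3*, the pore subunit known from hippocampal interneurons, was measured at 12.8, 15.8 and 7.51 FPKM in the Con. group, 11.05, 13.0 and 10.2 FPKM in the PTZ group, and 5.36 and 14.2 FPKM in the Q808 group. The groups overlapped throughout. The lowest values came from Q808-1, Con.-3 and PTZ-3, and *Kcnd3* was the only gene of the 8 whose level in these 3 libraries (5.36 to 10.2 FPKM) lay entirely below that in the other 5 (11.05 to 15.8 FPKM). Of all tested genes, 9.59% lay lower in the 3 libraries in this way. The log2 difference between PTZ and Con. was -0.02 (95% interval -0.68 to 0.64, unadjusted p = 0.94), with -0.25 within the 5 libraries and 0.43 within the 3.

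*Kcnip3* was measured at 17.2, 23.4 and 25.5 FPKM in the Con. group, 31.7, 37.2 and 32.5 FPKM in the PTZ group, and 28.7 and 33.8 FPKM in the Q808 group. All kindled rats lay above all Con. rats, a division whose share over all tested genes was not computed, and the Q808 and PTZ libraries overlapped. The PTZ group was 1.55-fold higher than the Con. group (log2 difference 0.63, SE 0.18, 95% interval 0.22 to 1.05, unadjusted p = 0.00851), with means of 33.8 ± 2.98 and 22.0 ± 4.32 FPKM (SD, n = 3 each). The difference was 0.77 within the 5 libraries and 0.35 within the 3, and 0.64 with the striatum list as a covariate. It fell under the 1.5-fold limit without Con.-1 (0.46) or without PTZ-2 (0.56). The astrocyte list, whose ranges in the PTZ and Con. groups do not overlap, moved in the same direction. So did the mean of the neocortex list, at 2.39 in the Con. and 2.97 in the PTZ group. Its values were 2.18, 2.64 and 2.33 in the Con. group and 3.00, 3.39 and 2.52 in the PTZ group, which overlapped. In the Q808 group they were 2.39 and 2.83. Like *Kcnip3*, this list was highest in PTZ-2 and lowest in Con.-1. The part of either list in the result was not tested.

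*Kcnip2*, the KChIP best known from the heart, had low levels of 0.819, 2.41 and 0.815 FPKM in the Con. group, 0.322, 0.470 and 0.491 FPKM in the PTZ group, and 0.814 and 0.829 FPKM in the Q808 group. All PTZ libraries lay below all others, and Con.-2 stood far above the rest. Over all tested genes, PTZ did not overlap with Con. for 9.15% and with Q808 for 15.6%. The PTZ group was 2.46-fold lower than the Con. group on the log2(FPKM + 0.1) scale, which understates the change of low genes (log2 difference -1.30, SE 0.47, 95% interval -2.40 to -0.20, unadjusted p = 0.0271). The means were 0.428 ± 0.0924 FPKM in the PTZ group and 1.35 ± 0.921 FPKM in the Con. group (SD, n = 3 each). The difference was -1.63 within the 5 libraries and -0.63 within the 3. The call was lost without Con.-2 (-0.81), without PTZ-1 (-1.14) and without PTZ-2 (-1.36).

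The remaining KChIPs did not pass the test. *Kcnip1*, a KChIP known from GABAergic interneurons, ranged from 4.16 to 7.84 FPKM in the Con. group and from 5.81 to 7.999 FPKM in the PTZ group (log2 difference 0.22, 95% interval -0.41 to 0.85, unadjusted p = 0.429). *Kcnip4*, of which a splice form suppresses the fast inactivation of Kv4 channels, ranged from 4.81 to 8.44 FPKM and from 7.28 to 8.12 FPKM (0.15, 95% interval -0.42 to 0.72, unadjusted p = 0.55). Both were lowest in Con.-3 among the 6 libraries. Their differences were -0.03 and -0.14 within the 5 libraries and both 0.74 within the 3, so that the direction differed between the sets.

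Among the DPP partners, *Dpp10* was 5.29, 7.69 and 10.9 FPKM in the Con. group, 9.29, 12.1 and 18.4 FPKM in the PTZ group, and 8.79 and 10.2 FPKM in the Q808 group. The PTZ and Con. groups overlapped, since Con.-3 lay above PTZ-1, while within each replicate number the PTZ library was the higher. The log2 difference of 0.73 was not called (SE 0.34, 95% interval -0.06 to 1.53, unadjusted p = 0.0656). With the replicate number as a block, a pairing that the labels do not state, it was called (unadjusted p = 0.00235). It was also called within the 5 libraries (0.72), while within the 3 libraries the difference was 0.75. Without Con.-3 or without PTZ-1, it was 0.99 and 0.96 and was called as well. So it was with quantile normalization (0.78), median ratio scaling (0.78) and the striatum covariate (0.80). Without Con.-1, the lowest library, or without PTZ-3, the highest, it was 0.47 in each case, under the 1.5-fold limit. In total it was called in 7 of 17 alternative fits. *Dpp6* was 41.8, 44.6 and 42.2 FPKM in the Con. group, 42.5, 43.5 and 28.1 FPKM in the PTZ group, and 25.6 and 42.3 FPKM in the Q808 group. Its low values were those of PTZ-3 and Q808-1, and the groups overlapped (PTZ against Con. -0.20, 95% interval -0.64 to 0.24, unadjusted p = 0.32).

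Within the 5 libraries, 3 of the 8 genes were called between PTZ and Con., *Kcnip2*, *Kcnip3* and *Dpp10*, beside 9.82% of all tested genes. With 2 libraries in the PTZ group and 2 in the Con. group, this fit rests on the spread shared over genes. Their limma adjusted p-values were 0.198, 0.128 and 0.195, the lowest of each gene's alternatives, which reached 0.9999.

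**Figure D2:**
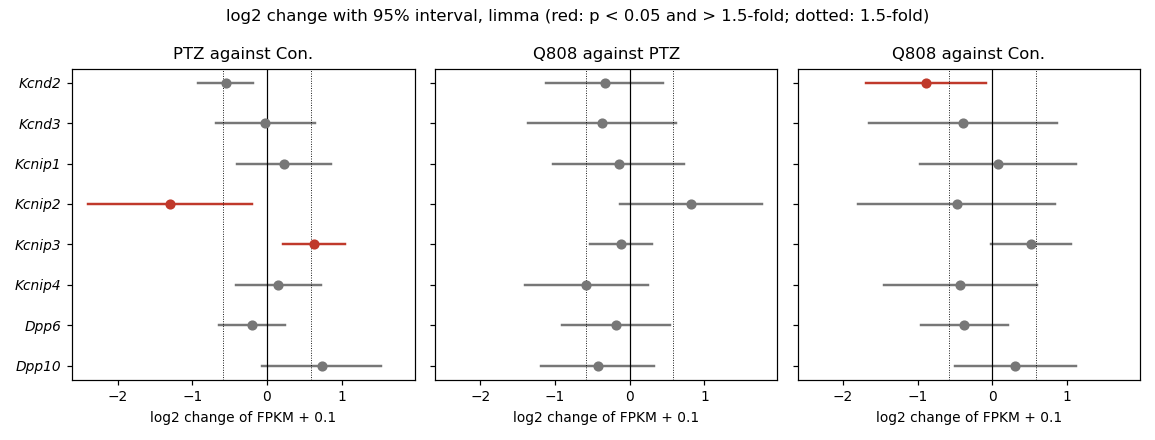
Change of each gene between groups, as the log2 difference of FPKM + 0.1 (horizontal axis, first group minus second) with its 95% interval from limma. Red marks the called genes, which are *Kcnip2* and *Kcnip3* in PTZ against Con. and *Kcnd2* in Q808 against Con., and dotted lines mark 1.5-fold.

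In the Q808 group compared with the PTZ group, which shares the kindling and differs by the Q808 treatment, none of the 8 genes was called. The share called over all tested genes was 1.36% higher and 0.564% lower in the Q808 group, and limma gave an unadjusted p-value under 0.05 for 341 of all tested genes and 0 of the 8. Benjamini-Hochberg adjusted p-values of the 8 in limma were 0.952 to 0.960, and no tested gene was under 0.05. *Kcnip2* was the only one of the 8 whose libraries did not overlap, at 0.814 and 0.829 FPKM in the Q808 group above 0.322 to 0.491 FPKM in the PTZ group, beside 15.6% of all tested genes. Its log2 difference was 0.82 (95% interval -0.13 to 1.77, unadjusted p = 0.0793), and it was 0.92 within the 5 libraries and 0.63 within the 3. Without the filter on low values or without limma's trend it was called. *Kcnip3* had the narrowest interval, with a difference of -0.12 and a 95% interval of -0.53 to 0.30. The intervals of the others also included 0 and were wider, at -1.12 to 0.45 for *Kcnd2*, -1.36 to 0.62 for *Kcnd3*, -1.02 to 0.73 for *Kcnip1*, -1.40 to 0.24 for *Kcnip4*, -0.90 to 0.54 for *Dpp6* and -1.18 to 0.33 for *Dpp10*. The median change of the 8 was -0.26, beside 0.10 over all tested genes, and both Q808 libraries enter it with very different levels. Within the 5 libraries, without Q808-1, that median was 0.03, beside 0.16 over all tested genes. In Q808-1, each of the 8 genes other than *Kcnip2* was lower than in any PTZ library. Of the 8 libraries, Q808-1 was also lowest in the lists of all neurons (6.09) and of CA1 and CA3 pyramidal cells (1.83). It was highest in the oligodendrocyte (9.05), astrocyte (6.76), microglia (4.97) and endothelium (4.52) lists. The part of these lists in the result was not tested. In Q808-2, *Kcnd3* and *Kcnip1* exceeded all PTZ libraries. A fit with 1 Q808 library takes its spread from the other libraries alone, assumes that Q808 rats vary like them, and describes that 1 rat rather than the Q808 treatment. With Q808-1 as the only Q808 library, *Kcnd2* (-0.85), *Kcnd3* (-1.07) and *Kcnip4* (-1.10) passed the limits for a call in such a fit, and with Q808-2 alone none did. In the 5 libraries, where Q808-2 is again the only Q808 library, 0 of the 8 genes were called, beside 10.4% of all tested genes.

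Between the Q808 and Con. groups, which differ by both PTZ and Q808, *Kcnd2* fell and 7 of the 8 genes were not called. Over all tested genes 3.07% were called higher and 0.391% lower, and the limma adjusted p-values of the 8 genes were 0.901 to 0.976. *Kcnd2* was 1.85-fold lower (log2 difference -0.89, SE 0.32, 95% interval -1.69 to -0.09, unadjusted p = 0.0352), with means of 24.5 ± 11.9 FPKM (SD, n = 2) and 42.9 ± 5.24 FPKM (SD, n = 3). The call was lost without Con.-1 (-0.93), Con.-2 (-0.95), Con.-3 (-0.79) or Q808-1 (-0.38), and in fits without the filter on low values or the trend. Within the 5 libraries the difference was -0.28, and within the 3 it was -1.60. Q808-1, the library with the lowest *Kcnd2*, was also lowest in the list of all neurons (6.09), whose part in the result was not tested. *Kcnip3* was 0.52 higher without passing the test (95% interval -0.02 to 1.05, unadjusted p = 0.0561), and it was called without Con.-3 (0.63). It was 0.17 within the 3 libraries and 0.75 within the 5, where it passed the limits for a call with Q808-2 as the only Q808 library and the spread taken from the Con. and PTZ libraries. *Kcnd2* and *Kcnip3* were the 2 of the 8 genes whose libraries did not overlap, beside 20.0% of all tested genes. *Dpp6* passed the limits without Q808-2 (-0.74), with Q808-1, a library high in striatum markers, alone against the spread of the Con. group. In the 5 libraries 1 of the 8 genes, *Kcnip3*, was called, beside 4.53% of all tested genes. The median change of the 8 was -0.39, beside 0.04 over all tested genes. Within the 5 libraries, with Q808-2 as the only Q808 library, that median was -0.02, beside 0.05 over all tested genes. This comparison and PTZ against Con. share the Con. libraries, so their similar values for *Kcnd2* (-0.89 and -0.56) and *Kcnip3* (0.52 and 0.63) are not independent.

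**Figure D3:**
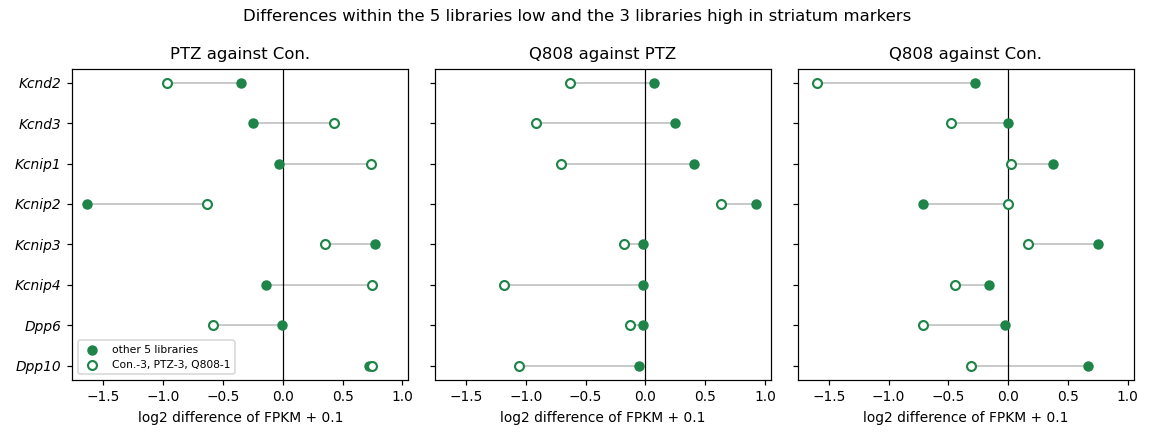
Log2 differences of FPKM + 0.1 between groups (horizontal axis) within the 5 libraries low in striatum markers (filled, 2 Con., 2 PTZ and 1 Q808) and within Con.-3, PTZ-3 and Q808-1 (open, 1 per group). *Kcnd2* is lower and *Kcnip3* and *Dpp10* are higher in PTZ than in Con. within both sets, whereas *Kcnd3*, *Kcnip1* and *Kcnip4* change direction.

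FPKM is scaled by length, so the subunits can be set against each other within a library, and such a ratio does not depend on the scaling between libraries. The ratio combines the values already given, was chosen with them in view, and is a description with no test. The summed FPKM of *Kcnd2* and *Kcnd3* was 53.2, 55.3 and 56.5 in the Con. group, 44.8, 42.1 and 35.1 in the PTZ group, and 21.5 and 47.1 in the Q808 group. The summed FPKM of the 4 KChIPs per pore FPKM was 0.614, 0.755 and 0.625 in the Con. group, 1.02, 1.26 and 1.37 in the PTZ group, and 1.74 and 1.08 in the Q808 group. By this sum, every library of a kindled rat had more KChIP than pore FPKM, and every Con. library had less. The sum leaves out *Kcnd1* (Kv4.1), at 2.66 to 5.92 FPKM, and with it added the ratio was 0.571, 0.711 and 0.566 in the Con. group, 0.959, 1.18 and 1.23 in the PTZ group, and 1.46 and 1.0009 in the Q808 group. PTZ-1 then had less KChIP than pore FPKM, while all kindled rats stayed above all Con. rats. The mean ratio was 1.83 times as high in the PTZ as in the Con. group, 1.66 times within the 5 libraries and 2.19 times within the 3. Leaving out each library in turn gave 1.71 to 1.98 times.

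*Kcnip3* supplied most of the KChIP FPKM, at 52.6% to 72.3% in the Con. group, 67.6% to 70.3% in the PTZ group and 66.2% and 77.0% in the Q808 group. *Kcnip2* made up 2.31% to 5.79%, 0.707% to 1.02%, and 1.62% and 2.19% in the same order. *Kcnip3* per *Kcnd2* was 0.426, 0.593 and 0.521 in the Con. group, 0.940, 1.28 and 1.30 in the PTZ group, and 1.78 and 1.03 in the Q808 group. Here the PTZ mean was 2.29 times the Con. mean, with 2.18 times within the 5 libraries and 2.50 times within the 3. The DPP partners per pore FPKM were 0.885, 0.946 and 0.940 in the Con. group, 1.16, 1.32 and 1.32 in the PTZ group, and 1.61 and 1.12 in the Q808 group. The ratio of *Dpp6* to *Dpp10* was 7.90, 5.80 and 3.87 in the Con. group, 4.58, 3.59 and 1.53 in the PTZ group, and 2.92 and 4.15 in the Q808 group, so that the groups overlapped. *Kcnd2* exceeded *Kcnd3* in every library, at 6.52 times its level in Con.-3 and 2.25 to 3.16 times in the others.

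**Figure D4:**
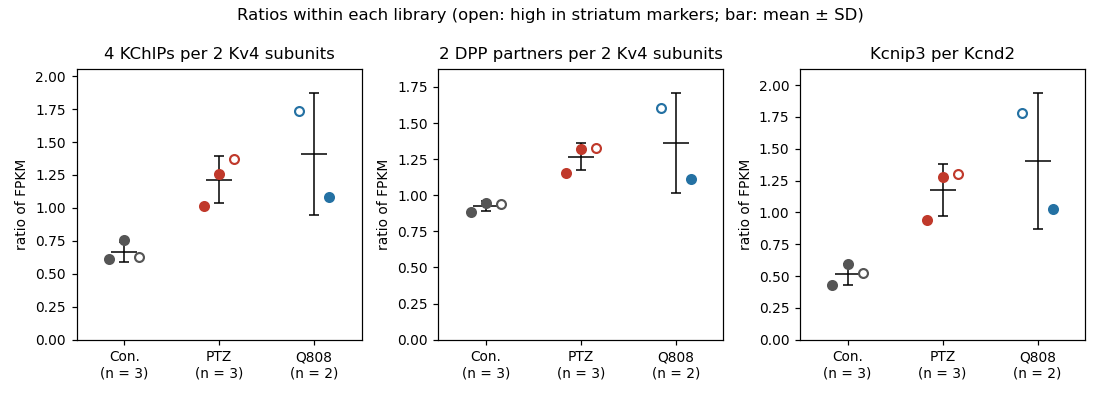
Ratios of FPKM within each library (vertical axes, linear, from 0), for the 4 KChIPs and the DPP partners per summed FPKM of *Kcnd2* and *Kcnd3* and for *Kcnip3* per *Kcnd2*. Points are libraries, open points are high in striatum markers, and bars show the mean ± SD. The Con. libraries lie below all libraries of kindled rats in each panel.

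Genes of the wider pathway were taken from 6 lists with 40 genes, of which 38 were tested. In PTZ against Con., 4 rose and none fell, in Q808 against PTZ 1 rose and 2 fell, and in Q808 against Con. 2 rose and 1 fell. Over all tested genes, 1.69%, 1.36% and 3.07% were called higher and 0.840%, 0.564% and 0.391% lower in the same order. Their median changes were -0.02, -0.13 and -0.10, beside -0.04, 0.10 and 0.04 over all tested genes. The limma adjusted p-values of the genes called were 0.999, 0.952 and 0.901 in the 3 comparisons.

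Among 6 targets and partners of *Kcnip3*, 1 rose and none fell in PTZ against Con., none rose and 1 fell in Q808 against PTZ, and 1 rose and 1 fell in Q808 against Con. *Pdyn*, which encodes prodynorphin and is the best-known target of DREAM repression, was 34.95, 37.3 and 71.4 FPKM in the Con. group, 32.6, 60.5 and 51.8 FPKM in the PTZ group, and 21.3 and 22.9 FPKM in the Q808 group. Over all tested genes, Q808 did not overlap with PTZ for 15.6% and with Con. for 20.0%. For *Pdyn*, both Q808 libraries lay below all others, while the PTZ and Con. groups overlapped. It fell 2.11-fold in Q808 against PTZ (log2 difference -1.08, SE 0.28, unadjusted p = 0.00782), with -0.95 within the 5 libraries and -1.28 within the 3, and was called in 16 of 16 alternative fits at unadjusted p-values, but in none at adjusted p-values, of which the lowest was 0.303. In Q808 against Con. it fell 2.05-fold (-1.03, SE 0.34, unadjusted p = 0.0241), and the call was lost without Q808-1 (-0.98) or Q808-2 (-1.09) and within the 5 libraries (-0.65). *Crem*, a cAMP-responsive transcription factor and another described DREAM target, was 2.37 to 2.85 FPKM in the Con. group, 5.06, 10.7 and 3.21 FPKM in the PTZ group, and 4.81 and 3.85 FPKM in the Q808 group. It lay above the Con. group in all kindled rats, a division whose share over all tested genes was not computed. In limma it rose by a log2 difference of 1.08 in PTZ against Con. (unadjusted p = 0.0359) and of 0.71 in Q808 against Con. (unadjusted p = 0.0209). The first call was lost without Con.-1, Con.-2, Con.-3, PTZ-1 or PTZ-2 (0.62 to 1.16), without the filter on low values (1.08), with quantile normalization (1.09) and with median ratio scaling (1.13). The second was lost without Con.-1, Con.-2 or Q808-1 (0.56 to 0.71), within the 5 libraries (0.62), with the striatum covariate (0.72), with all 3 groups in 1 fit (0.71) and with a pseudocount of 1 (0.56), and held in 9 of 16 alternative fits.

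Of 12 kinases, scaffolds and partners of Kv4, none was called in Q808 against PTZ, and 1 rose in each of the other comparisons. It was *Flna*, which encodes the actin cross-linker filamin A, a binding partner of Kv4.2. Its level was 4.36, 4.12 and 5.81 FPKM in the Con. group, 6.02, 9.17 and 9.71 FPKM in the PTZ group, and 11.4 and 11.95 FPKM in the Q808 group. The 3 groups did not overlap. Taking 2 groups at a time, this held for 9.15% (PTZ and Con.), 15.6% (Q808 and PTZ) and 20.0% (Q808 and Con.) of all tested genes. It rose 1.71-fold in PTZ against Con. (log2 difference 0.78, SE 0.25, unadjusted p = 0.0166), where the call was lost without Con.-1 (0.72), Con.-2 (0.68) or PTZ-2 (0.69), and 2.45-fold in Q808 against Con. (1.29, SE 0.21, unadjusted p = 0.0012), where it was called in 16 of 16 alternative fits at unadjusted p-values, but in none at adjusted p-values, of which the lowest was 0.359. The endothelium and microglia lists were also higher in both Q808 libraries than in all Con. libraries, and their part in the result was not tested.

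Of the 4 dipeptidyl peptidase relatives, 2 rose and none fell in PTZ against Con., and none was called in the other comparisons. They were *Fap*, a surface protease known from activated fibroblasts (2.06, unadjusted p = 0.0267), and *Dpp4*, which cleaves peptide hormones (1.24, unadjusted p = 0.0445), both at low levels. *Fap* was 0.0613, 0.361 and 0.494 FPKM in the Con. group and 1.90, 2.76 and 0.466 FPKM in the PTZ group. *Dpp4* was 0.130, 0.110 and 0.262 FPKM in the Con. group and 0.241, 0.521 and 0.982 FPKM in the PTZ group. For both genes the groups overlapped. *Fap* was 3.13 higher within the 5 libraries and -0.07 different within the 3, and its call was lost without Con.-1, PTZ-1 or PTZ-2 (1.498 to 1.85). The call of *Dpp4* was lost without Con.-1, Con.-2, PTZ-2 or PTZ-3 (0.82 to 1.23), within the 5 libraries (1.07) and with a pseudocount of 1 (0.41).

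Of the 4 other A-type pore subunits, none was called in PTZ against Con. or Q808 against Con., and *Kcna4* (Kv1.4) fell in Q808 against PTZ. It was 4.55, 5.66 and 13.5 FPKM in the Con. group, 7.79, 8.94 and 6.40 FPKM in the PTZ group, and 4.56 and 5.15 FPKM in the Q808 group. Both Q808 libraries lay below the PTZ libraries, 2 groups that did not overlap for 15.6% of all tested genes, and the Con. group spanned both. The fall was 1.57-fold (log2 difference -0.65, SE 0.24, unadjusted p = 0.0354), and the call was lost when PTZ-1, PTZ-2, Q808-1 or Q808-2 was left out (-0.73 to -0.53), with the striatum covariate (-0.71), with all 3 groups in 1 fit (-0.65) and with a pseudocount of 1 (-0.57), and held in 9 of 16 alternative fits. Within the 5 libraries it was -0.69 and within the 3 it was -0.48. In PTZ against Con., *Kcna4* differed by 0.12 with all libraries. Within the 5 libraries that difference was 0.70 and was called (limma, unadjusted p = 0.00815, adjusted p = 0.150). Within the 3 libraries it had the opposite direction (-1.06).

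Of the 8 other auxiliary subunits, 6 were tested, and *Kcne2* alone was called, rising in Q808 against PTZ (log2 difference 2.10, SE 0.76, unadjusted p = 0.031). It was 6.69, 4.54 and 0.819 FPKM in the Con. group, 0.701, 1.17 and 1.77 FPKM in the PTZ group, and 2.19 and 12.3 FPKM in the Q808 group. *Kcne2* is abundant in choroid plexus epithelium, and the choroid plexus list was 3.37, 3.52 and 0.47 in the Con. libraries, 1.49, 1.02 and 1.95 in the PTZ libraries, and 0.89 and 4.79 in the Q808 libraries, high in the same 3 libraries as *Kcne2*. Its part in the result was not tested. The call was lost without PTZ-1 (1.79), PTZ-2 (2.12) or Q808-2 (0.88), without the filter on low values and with all 3 groups in 1 fit (both 2.10), while within the 5 libraries it was 3.62. Within the 3 libraries it was 0.29. In PTZ against Con., *Kcne2* was not called with all libraries (-1.31, unadjusted p = 0.124 in limma). Within the 5 libraries that difference was -2.48 and was called (limma adjusted p = 0.0409), while within the 3 it was 1.03. In the fit of the 5 libraries, 148 of all tested genes had an adjusted p-value under 0.05 between PTZ and Con. None of the 6 neuronal calcium sensor relatives was called in any comparison. The most abundant were *Hpca* (hippocalcin), with a mean of 792 FPKM over the 8 libraries, and *Vsnl1* (visinin-like protein 1), with 241 FPKM. *Hpca* differed by -0.39 in PTZ against Con. (95% interval -1.03 to 0.25, unadjusted p = 0.193) and *Vsnl1* by 0.52 (95% interval -0.18 to 1.21, unadjusted p = 0.122). In Q808 against PTZ they differed by -0.33 and by -0.68 (limma, unadjusted p = 0.377 and 0.0506). All PTZ libraries lay above all others for *Vsnl1*, and both Q808 libraries lay below all Con. libraries for *Hpca*. Groups did not overlap for 9.15% (PTZ and Con.), 15.6% (Q808 and PTZ) and 20.0% (Q808 and Con.) of all tested genes.

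The genes most like each of the 8 in pattern were found by Pearson's r of log2(FPKM + 0.1) over the 8 libraries among 12556 genes with a mean of at least 1 FPKM. With 8 libraries that share their groups and the division by striatum markers, these are descriptions and not tests. *Kcnd2* was most like *Scn2b*, a sodium channel beta subunit (r = 0.982), and *Pcdhb16*, a protocadherin (r = 0.971). *Kcnip3* was most like *Camk2d*, a calcium/calmodulin-dependent kinase (r = 0.959), and *Olfm2* (r = 0.948). For *Kcnip2* the genes were *Tyms*, thymidylate synthase (r = 0.967), and *Tbck* (r = 0.955), and for *Dpp10* they were *Rab3b*, a GTPase of synaptic vesicles (r = 0.979), and *Rpp25* (r = 0.976). *Kcnd3* was most like *Gzmm* (r = 0.992) and *Smc1a*, a cohesin subunit (r = 0.99), and *Kcnip4* most like *Sucla2*, a subunit of succinyl-CoA synthetase (r = 0.996), and *Ndfip1* (r = 0.992). *Dpp6* was most like *Unc80*, a subunit of the NALCN sodium leak channel (r = 0.985), and *Uspl1* (r = 0.984), and *Kcnip1* most like *Med20*, a Mediator subunit (r = 0.956), and *Npr3* (r = 0.946). The number of genes with r above 0.9 was 452 for *Kcnd3*, 271 for *Kcnip4*, 204 for *Dpp6* and 74 for *Kcnd2*, and 23, 10, 9 and 4 for *Kcnip1*, *Dpp10*, *Kcnip3* and *Kcnip2*.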

How the data were processed

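Hippocampal RNA of 8 rats was sequenced, and the authors deposited FPKM per gene for 22601 genes in each library, computed with Cufflinks after trimming with Trimmomatic. HISAT2, HTSeq, DESeq, Bowtie2, StringTie and SAMtools are also named in the submitters' processing notes. The genome build was not given in the sources used here. The authors' read counts were not used here, so counting error could not be computed on its own and precision is given by the spread between libraries. The p-values of limma rest on that spread, drawn toward a value shared over genes. Symbols came from RefSeq (GRCr8) for 20633 genes and 1968 kept their GeneID.

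The 15593 genes with a mean of at least 0.1 FPKM were tested on log2(FPKM + 0.1) in R 4.3.3 with limma 3.58.1 (empirical Bayes with a mean-variance trend, two-sided), each comparison on its own 2 groups. Calls follow the study's rule of an unadjusted p-value under 0.05 and 1.5-fold, with Benjamini-Hochberg adjusted values beside it. Python 3.11.15 was used with matplotlib 3.10.9 for figures and pandas 2.3.3, scipy 1.17.1 and numpy 2.4.6 for tables.

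The 8 genes, the 6 pathway lists, the 12 marker lists and the division into 3 and 5 libraries were chosen with earlier results of these data known. Named from each pathway list were all called genes and otherwise up to 2 genes of the highest mean FPKM, and for each of the 8 genes the 2 of the highest Pearson's r. The deviations of PTZ and Con. libraries with the same replicate number from their group means correlated over genes at 0.212, 0.299 and 0.422. The last value is that of Con.-3 and PTZ-3, both high in striatum markers. Con.-2 and PTZ-1, of different numbers, correlated at 0.322, and the other such pairs at -0.427 to 0.0980. The numbers were used as a block for these libraries, but the correlations do not establish pairs. The labels do not state a shared litter, batch or day. Alternatives were pseudocounts of 1 and 0.01, no filter, a mean of at least 1 FPKM, all 3 groups in 1 fit, no trend, median ratio scaling, quantile normalization, the replicate block, the striatum list as a covariate, the 5 libraries alone, a 2-fold limit, adjusted p-values and each library left out. Leaving out libraries from the ratios and adding *Kcnd1* to them were chosen after seeing the data.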

Additional observations from a re-analysis of the deposited data

How the results depend on the processing

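Of 389 recomputed changes of the 8 genes, 333 kept their direction and side of the call, 20 gained the call, 12 lost it and 24 turned direction. The 2 of the 8 genes called in PTZ against Con. became 1 at a mean of at least 1 FPKM, where *Kcnip2* was not tested, and 1 at 2-fold, 4 with the striatum covariate, 0 with adjusted p-values, and 0 to 3 with each library left out (0 without PTZ-2). The 0 of Q808 against PTZ became 1 without the filter and 1 without the trend, and 0 to 3 with each library left out. The 1 of Q808 against Con. became 0 without the filter, 0 without the trend, 0 at 2-fold, 0 with adjusted p-values, 2 with the replicate block (*Kcnd2* and *Kcnip3*), and 0 to 2 with each library left out. Genes of the pathway lists called went from 4 to 2 at a mean of at least 1 FPKM, 0 with adjusted p-values and 0 to 6 with each library left out in PTZ against Con., from 3 to 1 with all 3 groups in 1 fit, 5 with the replicate block, 0 with adjusted p-values and 1 to 6 with each library left out in Q808 against PTZ, and from 3 to 5 with the striatum covariate, 0 with adjusted p-values and 2 to 7 with each library left out in Q808 against Con.

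The directions that turned had intervals that included 0. In PTZ against Con., *Kcnd3* was 0.025 with quantile normalization, 0.0225 with median ratio scaling and -0.33 to 0.21 with each library left out. Within the 5 libraries *Kcnip1* was -0.033 and *Kcnip4* -0.14, and with each library left out they were -0.020 to 0.43 and -0.10 to 0.30, and *Dpp6* was -0.31 to 0.0059. In Q808 against PTZ, *Kcnd2*, *Kcnd3* and *Kcnip1* were 0.0702, 0.24 and 0.40 within the 5 libraries, and with each library left out they were -0.85 to 0.18, -1.07 to 0.32 and -0.68 to 0.39, *Kcnip3* -0.23 to 0.00315 and *Dpp6* -0.54 to 0.18. In Q808 against Con., *Kcnip1* was -0.17 with the replicate block and -0.46 to 0.61 with each library left out, *Kcnd3* -1.09 to 0.30, *Kcnip2* -0.72 to 0.0072 and *Kcnip4* -0.95 to 0.093. The cause was not tested. Replicate numbers shared with the Q808 group gave correlations of -0.295 and 0.322 with PTZ and -0.379 and 0.527 with Con., so they were not taken as pairs. The block fits of the Q808 comparisons are therefore given as alternatives only. Over all genes, the block raised the calls from 300 to 1894 in Q808 against PTZ and from 540 to 1076 in Q808 against Con. In PTZ against Con. they went from 395 to 616. In PTZ against Con. the block changed no call of the 8 genes other than that of *Dpp10*. Over all genes, the 395, 300 and 540 calls ranged over the alternatives that kept the rule for a call from 219 to 1532 (PTZ against Con.), 132 to 1894 (Q808 against PTZ) and 279 to 1799 (Q808 against Con.), while a 2-fold limit left 191, 183 and 257 and adjusted p-values 0, 0 and 1. Median ratio scaling moved the median of all genes in Q808 against PTZ from 0.097 to 0.0076.

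With 3 and 2 libraries per group and a call at unadjusted p-values, the limits are the spread between rats and the crossing of the groups by the 3 libraries high in striatum markers. Without read numbers, values near 0, such as those of *Kcnip2*, *Fap* and *Dpp4*, carry an unknown counting error.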

Other observations

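Several genes of the wider Kv4 pathway differed between the libraries high and low in striatum markers. These were chosen after their values were seen, the division was itself made from expression, and no test was run. Of the 38 pathway genes tested, 13 (34.2%) did not overlap between Con.-3, PTZ-3 and Q808-1 and the other 5 libraries, beside 24.8% of all tested genes and 1 of the 8 Kv4, KChIP and DPP genes. Of the 38, 4 were higher and 9 lower in the 3 libraries, beside 15.2% higher and 9.59% lower of all tested genes. *Kcnc4* (Kv3.4) was 7.51 to 10.4 FPKM in the 3 libraries and 23.2 to 34.8 FPKM in the other 5, and *Kcnab2*, a cytoplasmic beta subunit of Kv1 channels, was 58.0 to 75.6 against 143 to 185 FPKM. *Prkca*, a protein kinase C, was 17.4 to 23.1 against 45.0 to 50.9 FPKM. *Dlg1*, the scaffold SAP97, was higher in the 3 libraries, at 44.2 to 61.3 against 18.0 to 31.2 FPKM, and so was *Kcnd1* (Kv4.1), at 4.04 to 5.92 against 2.66 to 3.97 FPKM.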
